A study of Mus musculus with 4 samples.

Results

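The epidermal growth factor (EGF) family ligands Egf, Tgfa, Areg, Hbegf and Nrg1, the ErbB receptors Egfr, Erbb2 and Erbb3, and the neurotrophin receptor Ntrk2 were examined in mouse sublingual glands, which secrete mucous saliva. They were picked as 9 named genes, and all 9 had a row among the 24411 gene symbols of the count table. RNA sequencing counts came from female C57BL/6J mice that all carried the Nkx2.3-/- genotype (loss of a homeobox transcription factor), at 32 weeks of age (2 libraries, replicates 3 and 4) and at 8 weeks of age (2 libraries, replicates 1 and 2). Both ages carry the knockout by their labels and no wild-type gland was analysed here, so no comparison with wild type was made. Whether each library is 1 animal or a pool is not stated, so the spread behind each p-value is that among 4 libraries and may be technical.

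The EGF family ligands are made as membrane-bound precursors that are cut loose by proteases and then bind ErbB receptors on the same or on neighbouring cells. Egfr binds Egf, Tgfa, Areg and Hbegf. Erbb3 binds Nrg1, a neuregulin, but has very weak kinase activity of its own. Erbb2 has no known ligand and serves as the partner that pairs with the others. Ntrk2 (TrkB) is the receptor tyrosine kinase for brain-derived neurotrophic factor and for the product of Ntf5. Mouse salivary glands are the classical source from which EGF was purified, and in rodents it is best known as a product of the granular duct cells of the submandibular gland.

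Total counts were 16484772 and 16111122 at 32 weeks, against 12925869 and 14265485 at 8 weeks. Nkx2-3 itself had between 21 and 31 counts in each library. The deleted part of the gene is not stated and a count over the whole gene cannot show whether it is absent, so the genotype is taken from the labels alone. The genes that define the sublingual gland were abundant at both ages: the summed level of 8 mucous and demilune marker genes, among them Muc19, Smgc and Dcpp3, was 524100 and 326000 CPM (counts scaled to a common library size, with library sizes adjusted by the trimmed mean of M values, TMM) in 32-week replicates 3 and 4, against 315600 and 433300 CPM in 8-week replicates 1 and 2. The sum was thus higher in 32-week replicate 3 and 8-week replicate 2 than in the other 2 libraries, but its genes did not move as 1. Dcpp3 and Dcpp2 followed that order, whereas Smgc ran the opposite way, with 42000 and 126000 CPM in 32-week replicates 3 and 4, against 142000 and 73300 CPM in 8-week replicates 1 and 2. Genes of lymphocytes and plasma cells (6 genes) summed to 525.4 and 815.3 CPM in 32-week replicates 3 and 4, against 939.5 and 77.06 CPM in 8-week replicates 1 and 2, so 8-week replicate 2 stood apart as low. Genes listed here as markers of the parotid gland, a neighbouring serous gland, also differed between libraries. Amy1, salivary amylase, had 29 and 28 counts in 32-week replicates 3 and 4, against 2059 and 29 counts in 8-week replicates 1 and 2, and Dnase1 was likewise high in 8-week replicate 1 alone. Prol1, counted in the same list, had 145 and 7 counts in 32-week replicates 3 and 4, against 2658 and 2946 counts in 8-week replicates 1 and 2. From which gland its counts came was not tested. All 4 tested genes of this list had negative fold changes (median log2 value -4.62) and none passed the test, while Prb1 had 0 counts in all 4 libraries. Their sizes were unlike: Car6, the gene with the most counts, had a log2 fold change of only -0.48 (SE 0.49). It had 987 and 1480 CPM in 32-week replicates 3 and 4, against 907 and 2530 CPM in 8-week replicates 1 and 2. Member fold changes that turn on a single library are given without it too.

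Egf was by far the most abundant ligand of its family. It had 2274 and 2121 counts in 32-week replicates 3 and 4, against 2151 and 3742 counts in 8-week replicates 1 and 2. Per kilobase of exon its level averaged 36.5 CPM over the 4 libraries, above 95.2% of the 16144 genes that had a count and an annotated length, where the median gene stood at 1.41 CPM per kilobase. Of the summed counts per kilobase of the 11 EGF family ligands, Egf made up 84.4% and 82.7% in 32-week replicates 3 and 4, against 86.7% and 90.7% in 8-week replicates 1 and 2. These shares are taken within a library and do not depend on the scaling between libraries.

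**Figure D1:**
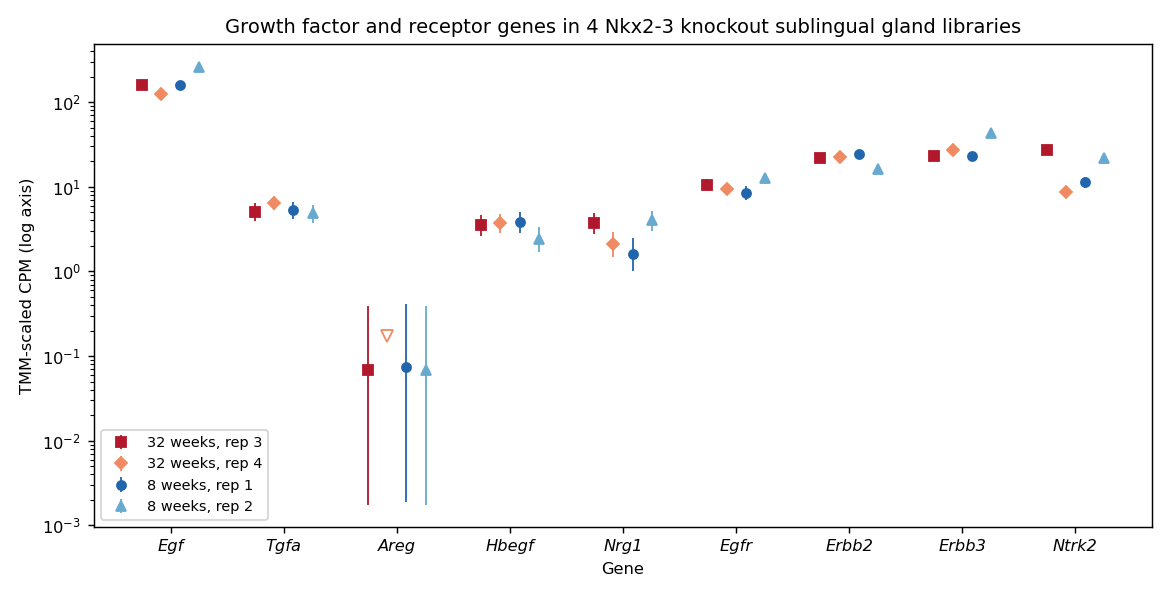
TMM-scaled CPM (vertical log axis) of the 9 genes in each library, with 32-week libraries as red and orange squares and diamonds and 8-week libraries as blue circles and triangles. Bars are exact 95% Poisson intervals, which cover counting error only, and the open triangle marks the limit that the count of 0 for Areg allows in 32-week replicate 4. Egf lies above 100 CPM in every library and Areg below 0.1 CPM wherever it had a count.

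Both 32-week libraries lay below both 8-week libraries for Egf, but only narrowly. Its level was 157.2 and 123.4 CPM in 32-week replicates 3 and 4, against 158.7 and 258.4 CPM in 8-week replicates 1 and 2. On this scale the separation of the ages rests on 8-week replicate 2, since 8-week replicate 1 lay within 2 CPM of 32-week replicate 3. The exact 95% Poisson intervals, which cover counting error only, were 151 to 164 CPM in 32-week replicate 3 and 152 to 166 CPM in 8-week replicate 1, so on this scale those libraries could not be told apart at this depth. That depends on the scaling: with total counts only, Egf had 138.0 and 131.8 CPM in 32-week replicates 3 and 4, against 166.6 and 262.5 CPM in 8-week replicates 1 and 2, and both 8-week libraries stood clear of the 32-week ones. The interval of 8-week replicate 2, 250 to 267 CPM, overlapped no other. Between ages, the log2 fold change of 32 over 8 weeks was -0.57 (SE 0.29, 95% interval -1.25 to 0.10), and it did not pass the test (edgeR adjusted p = 0.999). Leaving out 8-week replicate 2 gave -0.17 and leaving out 8-week replicate 1 gave -0.88, and it had the same sign under each of the 11 other settings tried.

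No member of the group passed the age comparison. With edgeR's quasi-likelihood test, 0 of the 8 members tested reached an adjusted p of 0.05, against 0% of all 12810 genes tested. At an unadjusted p under 0.05 there were 0 members, against 1.36% of all genes (174), and the smallest unadjusted member p was 0.0863, for Egf. limma-voom and DESeq2 also called 0 members, with smallest unadjusted member p-values of 0.0925 and 0.0505. Egf was the 1 tested member whose ages did not overlap. Over all genes, both 32-week libraries lay below both 8-week libraries in 14.2%, near the 1 of 8 found here for that direction. They lay above them in 14.4% of all genes and in no tested member. Ages that did not overlap were thus no more common among the members than over all genes. The fold change was positive in 5 and negative in 3 of the 8, with a median log2 value of 0.079 against -0.011 over all genes tested. With 2 libraries against 2, an exact permutation test of a single value cannot give a p below 0.333, so none was run.

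Egf (chromosome 3, minus strand, 129380493 to 129458240 of NCBIM37, the assembly also named mm9) encodes a large precursor from which the mature peptide is cut. Several tissue kallikreins are known to bind and process that precursor in the mouse. Of these EGF-binding proteins, Klk1b9 had 4.63 and 3.96 CPM in 32-week replicates 3 and 4, against 4.58 and 15.5 CPM in 8-week replicates 1 and 2. It was highest in 8-week replicate 2, as Egf was (log2 fold change -1.23, SE 0.52, edgeR adjusted p = 0.999). Klk1b22 took a different course, with 2.35 and 2.21 CPM in 32-week replicates 3 and 4, against 11.6 and 8.42 CPM in 8-week replicates 1 and 2. It was thus low in both 32-week libraries and highest in 8-week replicate 1, with a log2 fold change of -2.13 (SE 0.29). Its adjusted p equalled the smallest among all genes tested, a value not held by it alone, and did not pass the threshold (edgeR adjusted p = 0.784). Klk1b26 had 0 counts in each of the 32-week libraries, against 0 and 1 counts in 8-week replicates 1 and 2. The kallikreins are close paralogs, so their counts are uncertain, and they are named here with their values already seen.

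Markers of the granular duct cells in which Egf is best known were low. Their summed level over 10 genes was 12.03 and 10.24 CPM in 32-week replicates 3 and 4, against 73.79 and 35.7 CPM in 8-week replicates 1 and 2. Ren1 and Ren2 had 0 counts in all 4 libraries, and Smr3a alone supplied 49.7 CPM of the sum in 8-week replicate 1, with 0 counts in each other library. All 6 tested genes of this list had negative fold changes, with a median log2 value of -1.21, and none passed the test. General duct genes (8 genes, among them Krt7, Krt18 and Slc12a2) summed to 1155 and 1151 CPM in 32-week replicates 3 and 4, against 1069 and 1033 CPM in 8-week replicates 1 and 2. Krt18 supplied most of that sum and was lowest in 8-week replicate 2, at 633 CPM. Krt7, Krt19, Cftr, Slc12a2 and Slc9a3 were instead highest in that library, as Egf was. Scnn1a and Ascl3 were highest in 32-week replicate 3. Between 8-week replicate 2 and 32-week replicate 3, Slc12a2 (286 against 285 CPM) and Ascl3 (8.42 against 8.50 CPM) were nearly level. Slc9a3 had between 3 and 9 counts in each library. Of the 7 duct genes tested, 1 had a positive and 6 a negative fold change (median log2 value -0.10), and none passed. The tested genes of the parotid list given above had negative fold changes too, large for Amy1 and Dnase1 through 8-week replicate 1 alone. The part of any of these cell types in the level of Egf was not tested. In bulk tissue, fewer cells of a type and less RNA per cell cannot be told apart.

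The other ligands were detected at a small fraction of the level of Egf. Tgfa, an EGFR ligand of epithelia (chromosome 6, plus strand, 86145420 to 86225151), had 73 and 110 counts in 32-week replicates 3 and 4, against 72 and 70 counts in 8-week replicates 1 and 2. That is 5.05 and 6.40 CPM in the 32-week libraries, against 5.31 and 4.83 CPM in the 8-week libraries. The ages overlapped and the values varied least among the members, by 1.32-fold from lowest to highest library (log2 fold change 0.18, SE 0.27, 95% limits -0.46 and 0.81, edgeR adjusted p = 0.999). With 32-week replicate 4 left out, the log2 fold change was -0.004. Per kilobase, the ratio of Egf to Tgfa counts was 24.5 and 15.2 in 32-week replicates 3 and 4, against 23.5 and 42.0 in 8-week replicates 1 and 2.

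Hbegf, the heparin-binding ligand of Egfr and Erbb4 (chromosome 18, minus strand, 36664583 to 36675459), had 51 and 64 counts in 32-week replicates 3 and 4, against 52 and 35 counts in 8-week replicates 1 and 2. Its level was 3.53 and 3.72 CPM in the 32-week libraries, against 3.84 and 2.42 CPM in the 8-week libraries. Replicate 2 at 8 weeks was the low one and the other 3 libraries lay close together. For the age comparison the log2 fold change was 0.22 (SE 0.34, 95% limits -0.59 and 1.02, edgeR adjusted p = 0.999), and with 8-week replicate 2 left out it was -0.075.

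Areg, amphiregulin, a heparin-binding ligand of Egfr (chromosome 5, plus strand, 91568641 to 91577458), was at the limit of detection. It had 1 and 0 counts in 32-week replicates 3 and 4, against 1 and 1 counts in 8-week replicates 1 and 2. A count of 0 was taken to allow up to 3 counts, or 0.174 CPM in 32-week replicate 4. The upper limit of the exact 95% Poisson interval, a wider bound, was 0.215 CPM in that library. The upper 95% Poisson limits of the 3 libraries with 1 count were 0.385 CPM in 32-week replicate 3 and 0.411 and 0.385 CPM in 8-week replicates 1 and 2. Areg was the 1 member that did not pass the low-count filter, and no fold change is given for it.

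Nrg1, a neuregulin that binds Erbb3 and Erbb4 (chromosome 8, minus strand, 32928500 to 33119581), differed more between libraries of 1 age than between ages. It had 54 and 36 counts in 32-week replicates 3 and 4, against 22 and 58 counts in 8-week replicates 1 and 2. Its level was 3.73 and 2.09 CPM in the 32-week libraries, against 1.62 and 4.00 CPM in the 8-week libraries, a 1.78-fold difference within 32 weeks and a 2.47-fold difference within 8 weeks. The high libraries were 32-week replicate 3 and 8-week replicate 2, 1 from each age. Here the log2 fold change was 0.04 (SE 0.50, 95% limits -1.14 and 1.21, edgeR adjusted p = 0.999). It was -0.47 with 8-week replicate 1 left out, 0.83 with 8-week replicate 2 left out, -0.42 with 32-week replicate 3 left out, 0.41 with 32-week replicate 4 left out and -0.07 with total counts as the only scaling. Nrg1 shares 100 exonic bases with Gm17443, a long noncoding RNA on the opposite strand, and no source used here states whether counting used strand.

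Of the family's 6 other ligands, Btc was the 1 detected well enough to be tested. Btc, betacellulin, which binds Egfr and Erbb4, had 4.84 and 3.72 CPM in 32-week replicates 3 and 4, against 3.54 and 4.35 CPM in 8-week replicates 1 and 2 (log2 fold change 0.11, SE 0.31, edgeR adjusted p = 0.999). Per kilobase its mean level of 1.47 CPM lay beside those of Tgfa (1.43 CPM) and Hbegf (1.42 CPM). These 3 genes were near the median gene and their libraries overlapped, so no order can be given among them. Ereg had 1 and 1 counts in 32-week replicates 3 and 4, against 3 and 7 counts in 8-week replicates 1 and 2. Nrg4 had 4 and 6 counts in 32-week replicates 3 and 4, against 8 and 11 counts in 8-week replicates 1 and 2. Nrg2 had between 4 and 11 counts in each library, and Epgn and Nrg3 had 0 counts in all 4, which allows at most 0.221 CPM. Without Egf, the rest of the ligand pool was shared by Tgfa (22.1% and 31.5% in 32-week replicates 3 and 4, 27.7% and 23.1% in 8-week replicates 1 and 2), Hbegf (24.4% and 29.1%, 31.7% and 18.3% in the same libraries), Btc and Nrg1.

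**Figure D2:**
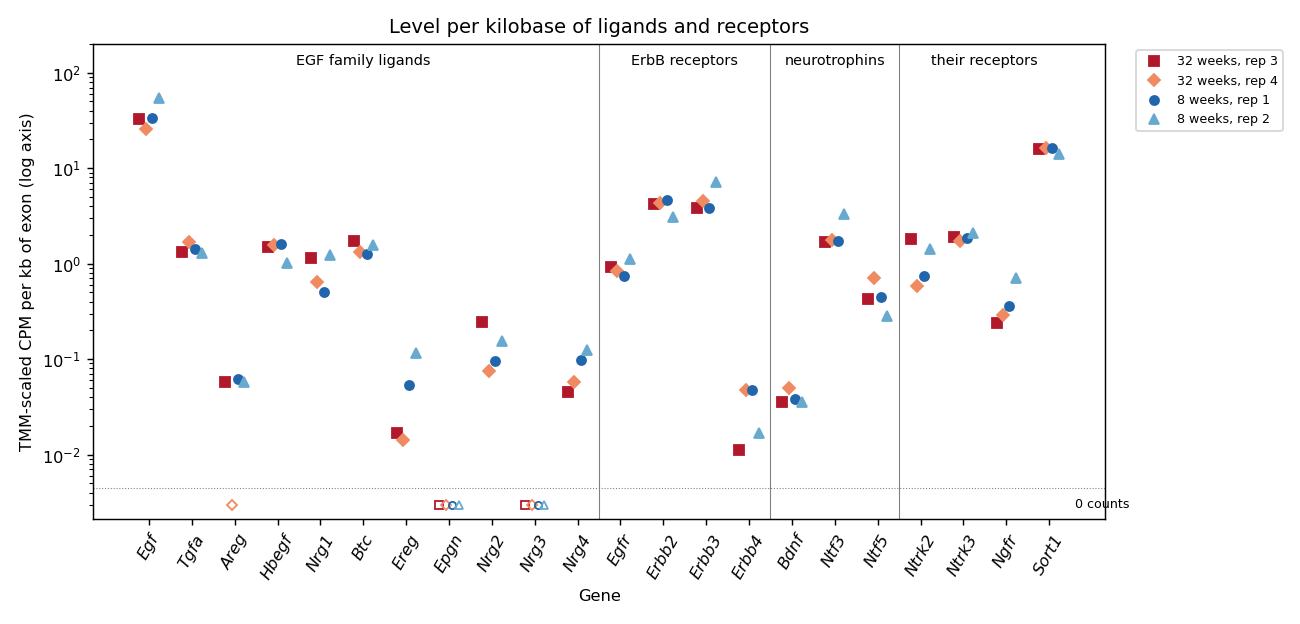
TMM-scaled CPM per kilobase of exon (vertical log axis) of EGF family ligands, ErbB receptors, 3 neurotrophins and 4 neurotrophin receptors in each library, with 32-week libraries as squares and diamonds and 8-week libraries as circles and triangles. Open symbols below the dotted line stand for 0 counts, as for Epgn and Nrg3 in all 4 libraries. Egf averages 36.5 CPM per kilobase, against 4.82 for Erbb3, 4.06 for Erbb2 and 15.6 for Sort1.

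All 3 ErbB receptors of the group were detected in every library, with Erbb3 and Erbb2 above Egfr per kilobase. The mean levels were 4.82 CPM per kilobase for Erbb3, 4.06 for Erbb2 and 0.905 for Egfr, which placed them above 73.8%, 70.5% and 42.9% of genes. Erbb3 and Erbb2 did not differ beyond their spread over libraries, whereas each exceeded Egfr in all 4 libraries. Erbb4, the remaining receptor of the family, had 2 and 10 counts in 32-week replicates 3 and 4, against 8 and 3 counts in 8-week replicates 1 and 2. It made up 0.125% to 0.515% of ErbB receptor counts per kilobase.

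Egfr (chromosome 11, plus strand, 16652206 to 16818161) had 152 and 162 counts in 32-week replicates 3 and 4, against 115 and 182 counts in 8-week replicates 1 and 2. Its level was 10.5 and 9.42 CPM in the 32-week libraries, against 8.49 and 12.6 CPM in the 8-week libraries. The 8-week libraries were the lowest and the highest, and the 32-week libraries lay between them. The log2 fold change was -0.08 (SE 0.25, 95% limits -0.68 and 0.51, edgeR adjusted p = 0.999), and it was 0.24 with 8-week replicate 2 left out, -0.33 with 8-week replicate 1 left out and 0.001 with 32-week replicate 4 left out. Counts per kilobase of Egf exceeded those of Egfr 35.4-fold and 31.0-fold in 32-week replicates 3 and 4, against 44.3-fold and 48.7-fold in 8-week replicates 1 and 2. This within-library ratio was thus lower in both 32-week libraries, and it was not tested.

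Erbb2 (chromosome 11, plus strand, 98273784 to 98299030) had 315 and 387 counts in 32-week replicates 3 and 4, against 329 and 231 counts in 8-week replicates 1 and 2. Its level was 21.8 and 22.5 CPM in the 32-week libraries, against 24.3 and 16.0 CPM in the 8-week libraries. The 32-week libraries differed by 1.03-fold, and both lay between the 8-week libraries, of which replicate 2 was the low one. The log2 fold change was 0.14 (SE 0.24, 95% limits -0.42 and 0.70, edgeR adjusted p = 0.999), and it was -0.13 with 8-week replicate 2 left out and 0.48 with 8-week replicate 1 left out. Erbb2 shares 9 exonic bases with 1810046J19Rik on the opposite strand.

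Erbb3 (chromosome 10, minus strand, 128004579 to 128026708) had 331 and 473 counts in 32-week replicates 3 and 4, against 311 and 619 counts in 8-week replicates 1 and 2. Its level was 22.9 and 27.5 CPM in the 32-week libraries, against 22.9 and 42.7 CPM in the 8-week libraries. Replicate 2 at 8 weeks was high, and 8-week replicate 1 was level with 32-week replicate 3. The log2 fold change was -0.38 (SE 0.30, 95% limits -1.09 and 0.32, edgeR adjusted p = 0.999), and it was 0.14 with 8-week replicate 2 left out, -0.76 with 8-week replicate 1 left out, -0.52 with 32-week replicate 4 left out and -0.25 with 32-week replicate 3 left out.

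The make-up of the ErbB receptors was alike in 3 libraries and different in 8-week replicate 2. Erbb3 supplied 42.6% and 46.8% of ErbB receptor counts per kilobase in 32-week replicates 3 and 4, against 41.1% and 62.9% in 8-week replicates 1 and 2. Erbb2 supplied 46.8% and 44.2% in 32-week replicates 3 and 4, against 50.3% and 27.1% in 8-week replicates 1 and 2. The ratio of Erbb3 to Erbb2 per kilobase was 0.91 and 1.06 in 32-week replicates 3 and 4, against 0.819 and 2.32 in 8-week replicates 1 and 2. In that library the low lymphocyte and plasma cell sum given above went with the shift, and its part was not tested.

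**Figure D3:**
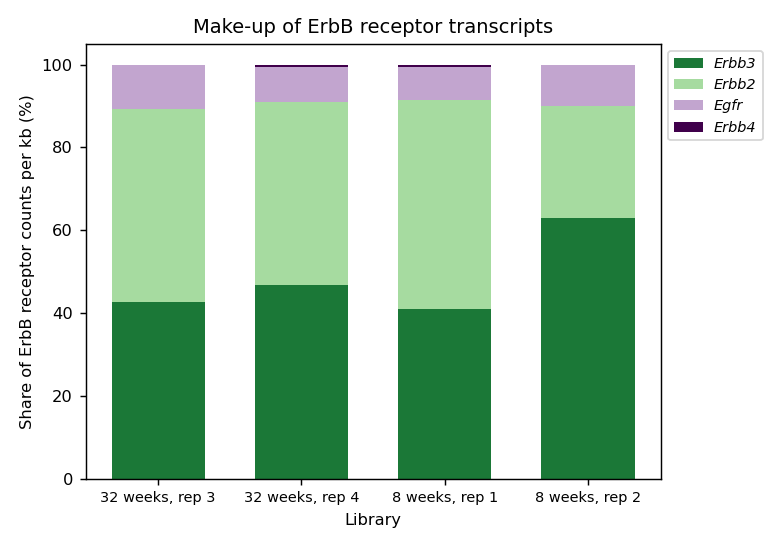
Share of ErbB receptor counts per kilobase of exon (vertical axis, percent) supplied by Erbb3, Erbb2, Egfr and Erbb4 in each library, 32-week libraries on the left. Erbb3 supplies 41.1% to 46.8% in 3 libraries and 62.9% in 8-week replicate 2.

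Schwann cells and nerve, which are known to use Erbb3 and Nrg1, were represented by 8 marker genes. Their summed level was 85.3 and 85.44 CPM in 32-week replicates 3 and 4, against 72.98 and 74.02 CPM in 8-week replicates 1 and 2, and no marker was at 0 in all libraries. Mbp, the myelin basic protein, had 35.3 and 38.6 CPM in 32-week replicates 3 and 4, against 32.6 and 29.9 CPM in 8-week replicates 1 and 2. Mbp supplied the largest part of the sum, and other markers were less even. Sox10, a transcription factor of Schwann cells that other gland cells also express, had 16.2 and 9.07 CPM in 32-week replicates 3 and 4, against 8.71 and 7.46 CPM in 8-week replicates 1 and 2. S100b had 2.49 and 2.73 CPM in 32-week replicates 3 and 4, against 2.73 and 1.45 CPM in 8-week replicates 1 and 2. Within 32 weeks Sox10 and Nrg1 were both higher in replicate 3, by 1.78-fold each. The part of Schwann cells in the levels of Erbb3 and Nrg1 was not tested. Myoepithelial and basal cell genes (7 genes, among them Acta2 and Krt14) summed to 488.9 and 572.0 CPM in 32-week replicates 3 and 4, against 414.9 and 484.9 CPM in 8-week replicates 1 and 2.

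Ntrk2 had the widest spread of the tested members, and it ran across the ages. Ntrk2 (chromosome 13, plus strand, 58907957 to 59235331) had 395 and 150 counts in 32-week replicates 3 and 4, against 153 and 313 counts in 8-week replicates 1 and 2. Its level was 27.3 and 8.72 CPM in the 32-week libraries, against 11.3 and 21.6 CPM in the 8-week libraries. It was high in 32-week replicate 3 and 8-week replicate 2 and low in the other 2 libraries, with a 3.13-fold difference within 32 weeks and a 1.91-fold difference within 8 weeks. Counting error did not cover these differences: the 95% Poisson intervals were 24.7 to 30.1 CPM and 7.38 to 10.2 CPM in 32-week replicates 3 and 4, against 9.57 to 13.2 CPM and 19.3 to 24.1 CPM in 8-week replicates 1 and 2. The log2 fold change was 0.12 (SE 0.52, 95% limits -1.08 and 1.33, edgeR adjusted p = 0.999). It was -0.27 with 8-week replicate 1 left out, 0.67 with 8-week replicate 2 left out, -0.91 with 32-week replicate 3 left out, 0.73 with 32-week replicate 4 left out, -0.02 with total counts as the only scaling and -0.04 with limma-voom.

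The counts do not separate full-length Ntrk2 from its known truncated forms, which lack the kinase domain. They also leave its level per kilobase uncertain: it averaged 1.14 CPM over 15094 bases of annotated exon, and 2.02 CPM over the longest coding transcript of 8541 bases. Of the 8 mucous and demilune marker genes, Dcpp1, Dcpp2, Dcpp3 and Bpifa2 were high in the libraries in which Ntrk2 was high, and Smgc was low there. Muc19, Aqp5 and Galnt12 did not follow that order. Aqp5 and Galnt12 were lowest in 8-week replicate 2, and Muc19 was higher in both 32-week libraries than in both 8-week libraries. Dcpp3, a demilune secretory protein gene, had 249000 and 90300 CPM in 32-week replicates 3 and 4, against 82000 and 179000 CPM in 8-week replicates 1 and 2. The part of demilune cells in the level of Ntrk2 was not tested.

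The main neurotrophin ligands of Ntrk2 were scarce. Bdnf had 3 and 5 counts in 32-week replicates 3 and 4, against 3 and 3 counts in 8-week replicates 1 and 2. Ntf5 had 0.83 and 1.40 CPM in 32-week replicates 3 and 4, against 0.886 and 0.552 CPM in 8-week replicates 1 and 2 (log2 fold change 0.64, SE 0.53, edgeR adjusted p = 0.999). Ntf3, which prefers the TrkC receptor Ntrk3, averaged 2.12 CPM per kilobase. It had 2.42 and 2.50 CPM in 32-week replicates 3 and 4, against 2.44 and 4.76 CPM in 8-week replicates 1 and 2, so that 8-week replicate 2 alone was high.

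Among the other receptors, Ntrk3 was steady where Ntrk2 was not. Ntrk3 had 9.89 and 9.02 CPM in 32-week replicates 3 and 4, against 9.67 and 11.0 CPM in 8-week replicates 1 and 2. The ratio of Ntrk2 to Ntrk3 counts per kilobase was 0.959 and 0.336 in 32-week replicates 3 and 4, against 0.406 and 0.684 in 8-week replicates 1 and 2. Ngfr, the p75 receptor that binds all neurotrophins, had 0.83 and 0.989 CPM in 32-week replicates 3 and 4, against 1.25 and 2.42 CPM in 8-week replicates 1 and 2 (log2 fold change -1.01, SE 0.48, edgeR adjusted p = 0.999). Sort1, sortilin, a sorting receptor that also binds pro-neurotrophins, was the most abundant, with 119 and 123 CPM in 32-week replicates 3 and 4, against 123 and 107 CPM in 8-week replicates 1 and 2.

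**Figure D4:**
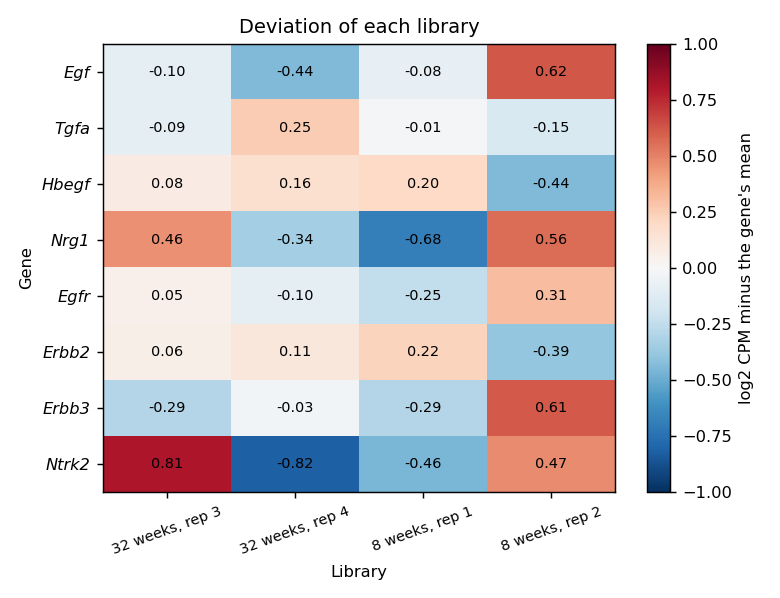
Deviation of each library (columns, 32-week libraries on the left) from the gene's mean log2 CPM for the 8 tested members (rows), with the value printed in each cell and red for above, blue for below. Egf and Erbb3 stand out in 8-week replicate 2 (0.62 and 0.61), and Ntrk2 deviates by 0.81 and -0.82 in the 32-week libraries.

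The members did not follow 1 common pattern across the libraries. Replicate 2 at 8 weeks was the highest library for 4 of the 8 tested members (Egf, Nrg1, Egfr and Erbb3) and the lowest for 3 (Tgfa, Hbegf and Erbb2). The range of log2 CPM over the 4 libraries (with a prior count of 2) was 1.63 for Ntrk2, 1.24 for Nrg1, 1.07 for Egf and 0.90 for Erbb3. It was 0.64 for Hbegf, 0.60 for Erbb2, 0.56 for Egfr and 0.40 for Tgfa. The median was 0.77 over the 8 members and 0.54 over all 12810 genes tested, and 7 of the 8 lay above that of all genes.

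For the 3 members with the widest range, the genes of most similar course were sought by the Euclidean distance between centred log2 CPM values over the 4 libraries, among all genes tested. For Ntrk2 these were Fabp5 (distance 0.088), Bhlhe41 (0.16) and Mgat4a (0.19). Bhlhe41, a transcriptional repressor of the circadian system, had 31.9 and 9.60 CPM in 32-week replicates 3 and 4, against 14.1 and 27.3 CPM in 8-week replicates 1 and 2. For Nrg1 they were Eci3 (0.088), Greb1l (0.088) and Fam13c (0.092), and for Egf they were Acnat1 (0.063), Srp54a (0.068) and Cyp2f2 (0.076). Cyp2f2, a cytochrome P450, had 732 and 611 CPM in 32-week replicates 3 and 4, against 782 and 1220 CPM in 8-week replicates 1 and 2. These distances rest on 4 libraries, were not tested, and are a description only.

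**Figure D5:**
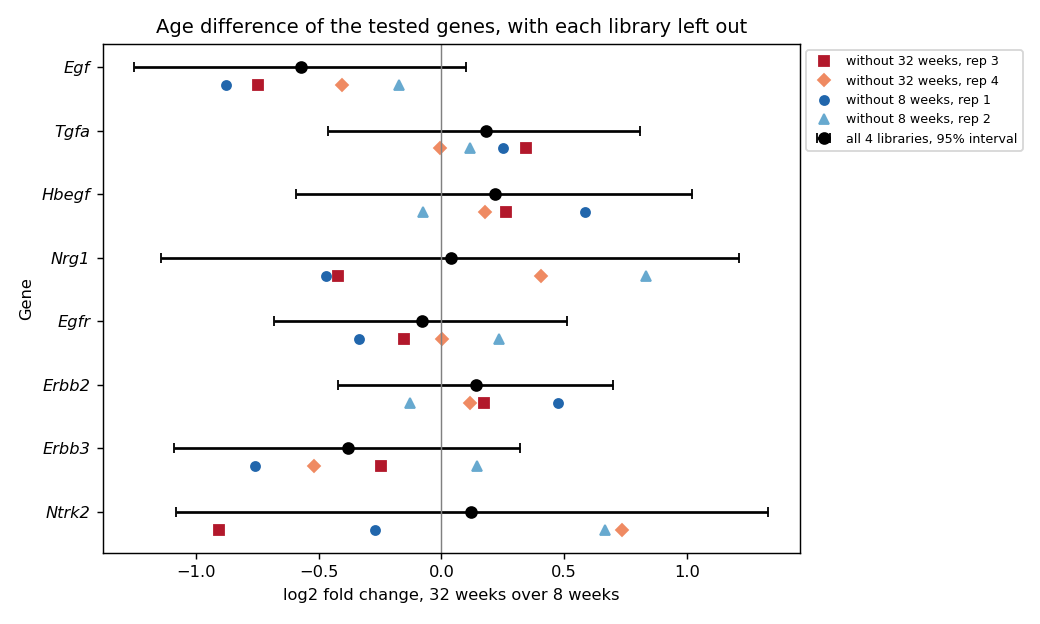
Log2 fold change of 32 over 8 weeks (horizontal axis) for the 8 tested members, with all 4 libraries (black, 95% interval from edgeR) and with each library left out (coloured symbols named after the library removed). Each interval spans 0, and for Egf alone do all the coloured symbols lie on the same side of 0 as the black one.

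Genes that release the ligands and carry the signal also showed no age difference that passed the test. Of 52 genes listed in the same families and pathway, 43 were tested, 0 passed in either direction, and 22 had positive and 21 negative fold changes (median log2 value 0.00 against -0.011 over all genes). The 4 genes for sheddases and their regulators were all tested, with 2 positive and 2 negative fold changes. Adam10 had 37.7 and 40.9 CPM in 32-week replicates 3 and 4, against 42.3 and 32.9 CPM in 8-week replicates 1 and 2. Rhbdf1, a regulator of the sheddase Adam17, had 8.71 and 10.3 CPM in 32-week replicates 3 and 4, against 8.04 and 8.29 CPM in 8-week replicates 1 and 2 (log2 fold change 0.22, SE 0.22, edgeR adjusted p = 0.999).

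Of the 13 adaptor and MAP kinase genes, 10 had positive and 3 negative fold changes, with a median log2 value of 0.06, and none passed. Mapk3, the kinase ERK1, had 62.7 and 56.7 CPM in 32-week replicates 3 and 4, against 49.6 and 39.6 CPM in 8-week replicates 1 and 2 (log2 fold change 0.42, SE 0.21, 95% limits -0.06 and 0.90, edgeR adjusted p = 0.999). Map2k2, which phosphorylates it, had 34.1 and 34.9 CPM in 32-week replicates 3 and 4, against 30.6 and 15.1 CPM in 8-week replicates 1 and 2, where replicate 2 was the low one. Of the 12 feedback inhibitors, 4 had positive and 8 negative fold changes (median log2 value -0.07), and none passed. Lrig1, which promotes the breakdown of ErbB receptors, had 44.9 and 36.4 CPM in 32-week replicates 3 and 4, against 42.3 and 41.5 CPM in 8-week replicates 1 and 2. Dusp6, an ERK phosphatase, had 31.7 and 22.6 CPM in 32-week replicates 3 and 4, against 28.6 and 42.3 CPM in 8-week replicates 1 and 2.

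Of the 8 target genes of ERK signalling, 7 were tested, with 3 positive and 4 negative fold changes (median log2 value -0.05), and none passed. Phlda1 had 91.5 and 52.0 CPM in 32-week replicates 3 and 4, against 58.7 and 54.9 CPM in 8-week replicates 1 and 2, so that 32-week replicate 3 alone was high. Fos, an immediate early gene, had 8 and 13 counts in 32-week replicates 3 and 4, against 22 and 19 counts in 8-week replicates 1 and 2. Its log2 fold change was -1.14 (SE 0.47, 95% interval -2.23 to -0.05), the unadjusted p was 0.0423 and the edgeR adjusted p = 0.999, so it failed the correction over all genes.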

How the data were processed

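The authors deposited raw read counts as whole numbers, 1 row per gene symbol and 1 column per library. Per the submitters' processing notes, reads were aligned with STAR to mm9. For the STAR version, counting tool, annotation and strand setting, no statement is given in the sources used here. Libraries were made from Trizol RNA with the Illumina TruSeq RNA kit, per the labels' protocols. Ages come from the labels, and columns were matched to libraries by index.

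From the counts, edgeR 4.0.16 (R 4.3.3) fitted age as the only term to all 4 libraries, with TMM factors, its default low-count filter and the quasi-likelihood test, adjusted by Benjamini-Hochberg over 12810 genes at a threshold of 0.05. Standard errors and 95% intervals derive from its F statistic. A count of 0 was taken to allow 3 counts, and counting intervals are exact Poisson. Lengths and positions come from GENCODE vM1 on NCBIM37, which matched 20836 of 24411 symbols by name. Alternatives were RLE factors, scaling by total counts alone, removal of the 10 genes with the most counts, no filter, a filter of 1 CPM in 3 libraries, DESeq2 1.42.0, limma-voom (limma 3.58.1), each library left out, and the longest coding transcript as gene length. The scripts were tested on simulated data. The members, gene lists and tests were chosen with earlier results of these data known. Named were all members, their ligand and receptor relatives, and per other pathway list the gene with the most counts and that with the largest fold change, with the 3 genes of nearest course for each of the 3 members of widest range. Genes of the marker lists were named with their values seen. Figures were drawn with matplotlib 3.10.9. Some listed genes are counted in the list totals and are not reported here.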

Additional observations from a re-analysis of the deposited data

How the results depend on the processing

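No member passed under any setting. The count over all genes was 0 in the main analysis, 10 with total counts only, 7 with no low-count filter, 3 with DESeq2, and 6 to 285 with 1 library left out (285 without 8-week replicate 1). Of 88 member fold changes under other settings, 75 kept their direction and 13 reversed, 10 of these by leaving out a library, and Egf alone of the 8 kept its direction throughout. With 1 library left out, log2 fold changes ranged from -0.004 to 0.34 for Tgfa, -0.075 to 0.59 for Hbegf, -0.47 to 0.83 for Nrg1, -0.33 to 0.24 for Egfr, -0.13 to 0.48 for Erbb2, -0.76 to 0.14 for Erbb3, -0.91 to 0.73 for Ntrk2 and -0.88 to -0.17 for Egf. In these fits the lone library of an age is assumed to vary like the other age. With total counts only, Nrg1 gave -0.072 and Ntrk2 -0.023, and with limma-voom Ntrk2 gave -0.043. Total counts only moved the median of all genes to -0.096, within 0.1 of 0. Over the longest coding transcript, the level per kilobase was 1.36 CPM for Nrg1 (main 0.889) and 2.02 CPM for Ntrk2 (main 1.14), and the other members moved by less than their spread. The cause of these shifts was not tested. No paired analysis was possible because the ages share no replicate number. Depth limits Areg, Erbb4 and Bdnf most.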
